A study of Mus musculus with 192 samples.

Results

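The 36 autophagy genes described here were chosen by name from the 41128 Ensembl genes of the deposited hippocampal count table, and all 36 were found in it. They were measured by polyA-selected RNA sequencing of hippocampus from 192 mice, 1 library per mouse. Of these, 96 were zQ175 mice, which carry an expanded CAG repeat knocked into the mouse Htt gene as a model of Huntington's disease, and 96 were wild type (WT). The mice followed 1 of 3 regimens. The regimen 2[4]6 dosed mice aged 2 months and ended at 6 months of age. Regimen 6[4]10 dosed at 6 months of age and ended at 10, and 2.6[8]10 dosed both at 2 and at 6 months of age and ended at 10. Within each regimen and genotype there were 4 groups of 8 mice, 4 of each sex. These were untreated mice, mice given a non-targeting small interfering RNA (NTC), mice given HTT-10150, an siRNA aimed at full-length HTT, and mice given HTT-634 and HTT-486 together (written HTT-634.486), a pair aimed at HTT1a, the short transcript that ends inside the first intron. The labels name no further allele or drug, and they do not say how the siRNA was delivered or whether it reached every cell type.

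Macroautophagy encloses cytoplasm in a double membrane, the autophagosome, and delivers it to the lysosome for breakdown. The ULK1 kinase complex starts the process, the class III PI3 kinase complex marks the membrane with PI3P, ATG9A and ATG2 proteins supply lipid, and linked conjugation systems attach ATG8 proteins (the LC3 and GABARAP families) to the growing membrane. Cargo receptors such as p62 (Sqstm1) and optineurin bind both ubiquitin and ATG8 proteins, and the transcription factor TFEB controls many lysosomal and autophagy genes. In neurons autophagosomes form largely in axons and are carried to the cell body, and HTT itself has been described as a scaffold in selective autophagy.

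Library totals ranged from 8441632 to 65748960 counts, and the lowest count of any member in any library was 49 (Atg4a). Htt, the siRNA target, was lower with HTT-10150 than with NTC in all 3 regimens and both genotypes, by 0.48 to 1.31 on the log2 scale (two-sided exact permutation test on 8 mice a group, p from 0.000155, the smallest possible, to 0.0194 over 9 tests, adjusted p at most 0.0194). The 9 tests include untreated zQ175 against untreated WT mice, where Htt was lower in zQ175 by 0.25 to 0.34 over the 3 regimens (same test, p from 0.000155 to 0.000311). Some libraries stood apart. The 6[4]10 zQ175 HTT-10150 libraries named female 4 and male 4 had Xist and Y-linked levels opposite to their labelled sex, and the 2.6[8]10 WT NTC library female 2 had almost none of either. The 2.6[8]10 WT HTT-10150 library female 1 went against its tissue label: its summed level of 6 striatal projection neuron markers was 4707 CPM (read counts scaled to library size, with TMM factors), against 59.8 to 188 in the other 63 libraries of the regimen, and its 8 excitatory neuron markers summed to 2440 CPM against 4345 to 7991. In that library 17 of the 36 members lay outside the range of the other 63, among them Ulk1 at 46.5 CPM (the others 68.2 to 87.7) and Calcoco1 at 155.7 CPM (the others 82.2 to 101). Finally, 48 of the 192 libraries held over 500 CPM of 8 choroid plexus markers, up to 11860, while the median library of each genotype and regimen held between 65.0 and 109 CPM. Counts of called members below are given again without these libraries where that changes them. Counts of cell type markers and of other pathway genes are given with all libraries only.

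ATG8 proteins, a cargo receptor and a lysosomal membrane protein led the members by level per length, given as CPM per kilobase of exon in the 24 untreated WT mice (mean ± SD). Gabarapl1, a GABARAP family protein abundant in neurons, stood first at 269 ± 11.1, followed by Sqstm1 at 129.1 ± 5.33, Lamp1 at 99.9 ± 4.92 and Map1lc3a (LC3A) at 86.4 ± 5.72. The lowest Gabarapl1 mouse, at 252, was above the highest Sqstm1 mouse, at 139. Gabarap at 60.8 ± 3.11 and Gabarapl2 at 52.3 ± 2.55 came next, and then Nbr1 at 23.3 ± 0.74 and Map1lc3b (LC3B) at 22.8 ± 0.83, which did not differ beyond their spread. The length is the union of all annotated exons, 7517 bases for Map1lc3b and 1181 for Map1lc3a, so this order depends on the annotation. In plain CPM the order of these 2 was the other way, with medians of 170.1 for Map1lc3b and 101 for Map1lc3a in the 32 WT mice of 2[4]6. The initiation genes Atg13 (20.6 ± 0.86), Ulk2 (17.8 ± 1.19), Atg101 (16.7 ± 1.65) and Ulk1 (11.8 ± 0.76) lay in the middle. Tfeb was the lowest member at 1.82 ± 0.22, next to the ATG4 protease Atg4a at 2.04 ± 0.24, and these neighbours overlapped. For Atg4a the counting is uncertain, because 51.2 percent of its 50-base words also occur in the pseudogene Atg4a-ps. The plot of level per length shows this order by role.

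**Figure D1:**
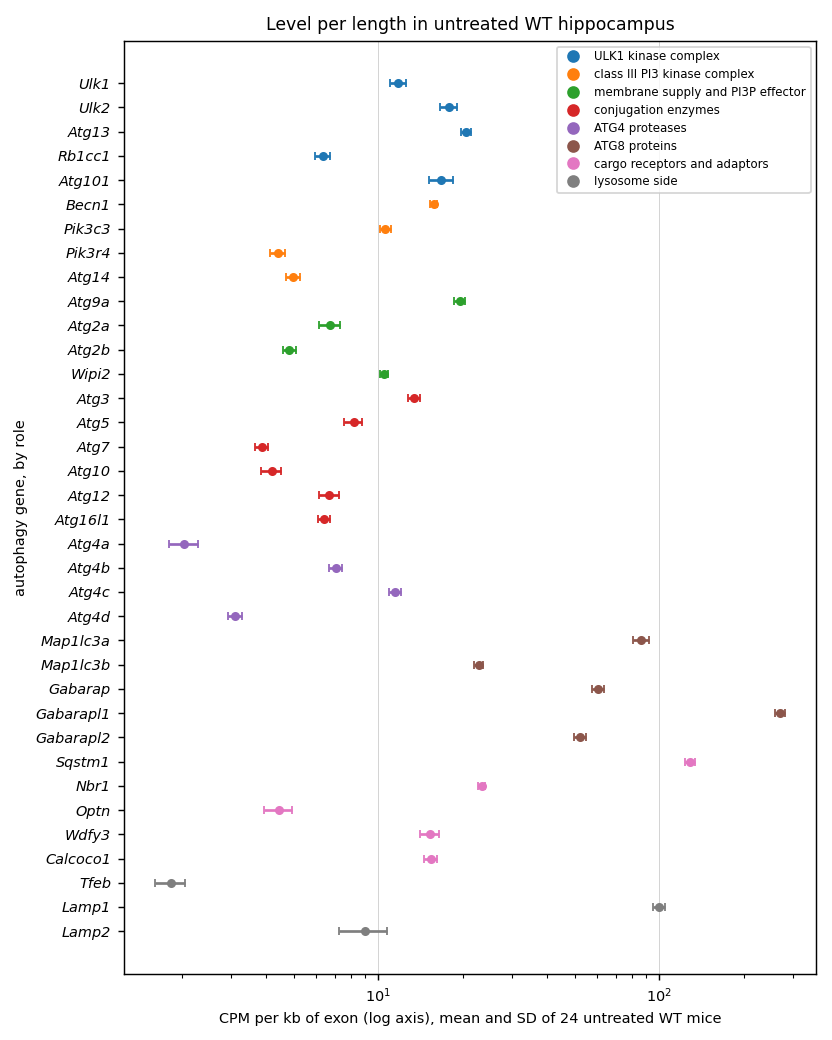
Level of the 36 members in CPM per kilobase of exon (log axis), as mean and SD of 24 untreated WT mice, coloured by role. The length is the union of all annotated exons, so the order depends on the annotation. Gabarapl1 (269) and Sqstm1 (129.1) lie far right, and Tfeb (1.82) and Atg4a (2.04) far left.

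All differences between groups were small. Within a regimen, the ratio of the highest to the lowest of the 8 group means had a median over members of 1.08 in each regimen, and the largest was 1.29 (Lamp2, 2.6[8]10). The typical spread between mice of 1 group was of the same order, with a median coefficient of variation of 5.13 to 5.51 percent.

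The first question was whether the knock-in allele changed these genes. In the comparison averaged over the 4 treatments (32 zQ175 against 32 WT mice), 7 members were called at an adjusted p under 0.05 in 2[4]6, 13 in 6[4]10 and 15 in 2.6[8]10. Among all genes tested 21.5, 41.3 and 32.1 percent were called, so the members' shares of 19.4, 36.1 and 41.7 percent were near the background. The 15 members of 2.6[8]10 were the most that any setting gave there: limma-voom with the library number as a block gave 8, and leaving out 1 replicate number at a time gave 7 to 10. Leaving out a replicate number also leaves fewer mice. The share of all genes called in these settings is not given here, so the lower counts are not read as a result about the members. By direction, 3, 5 and 5 members were raised and 4, 8 and 10 lowered, beside 10.6, 21.5 and 15.2 percent of all genes raised and 10.9, 19.8 and 16.9 percent lowered. The median log2 change over members was 0.01, -0.00 and 0.00. Of all members 5 were called in every regimen, Atg13, Atg101, Atg14 and Atg16l1 as lowered and Sqstm1 as raised. In 2.6[8]10 the Atg14 call held in 0 and the Atg16l1 call in 5 of 12 alternatives, and without the libraries over 500 CPM of choroid plexus markers 0 of these 5 were called in 2[4]6, so that 0 members were then called in every regimen. Another 3 were called in 2 regimens, 14 in 1 and 14 in none, and 0 members were raised in 1 regimen and lowered in another. Leaving out the library with striatal markers gave 13 members in 2.6[8]10 (7 raised, 6 lowered). The share of all genes called in that setting is not given here, so this count is not read as a result about the members. Leaving out libraries over 500 CPM of choroid plexus markers gave 1, 13 and 11 members, where 14.5, 38.6 and 29.01 percent of all genes were called with fewer mice.

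Untreated mice alone (8 against 8) gave fewer calls. Of the members 0, 3 and 3 were called in the 3 regimens in the order above, where 4.15, 11.5 and 11.1 percent of all genes were, and in 2[4]6 3 members had an unadjusted p under 0.05. They were Atg13 and Atg16l1, lowered in 6[4]10 and in 2.6[8]10, Sqstm1, raised in 6[4]10, and Ulk2, raised in 2.6[8]10. Without the library with striatal markers, 6 members were called in 2.6[8]10, the additional ones being Ulk1, Sqstm1 and Calcoco1, all raised. Here too the share of all genes in that setting is not given, and the higher count is not read as particular to the members. Without the libraries over 500 CPM of choroid plexus markers, 1 was called there, Tfeb, and Sqstm1 was lost in 6[4]10 (0.10, adjusted p = 0.0761). In NTC mice 1, 4 and 2 members were called, beside 5.23, 14.7 and 10.4 percent of all genes. They were Sqstm1 in 2[4]6, Atg13, Atg101 and Atg16l1 (lowered) with Lamp1 (raised) in 6[4]10, and Ulk2 (raised) with Becn1 (lowered) in 2.6[8]10. Without the libraries over 500 CPM of choroid plexus markers the calls of Sqstm1, Lamp1, Ulk2 and Becn1 were lost (adjusted p = 0.231, 0.0724, 0.121 and 0.0814) and Lamp2 was called as raised in 6[4]10 (0.17, adjusted p = 0.0386). Without the library with striatal markers Becn1 was lost (adjusted p = 0.0685) and Ulk1 was called as raised (0.10, adjusted p = 0.016). Both comparisons are part of the average over treatments and are no independent repeat of it.

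**Figure D2:**
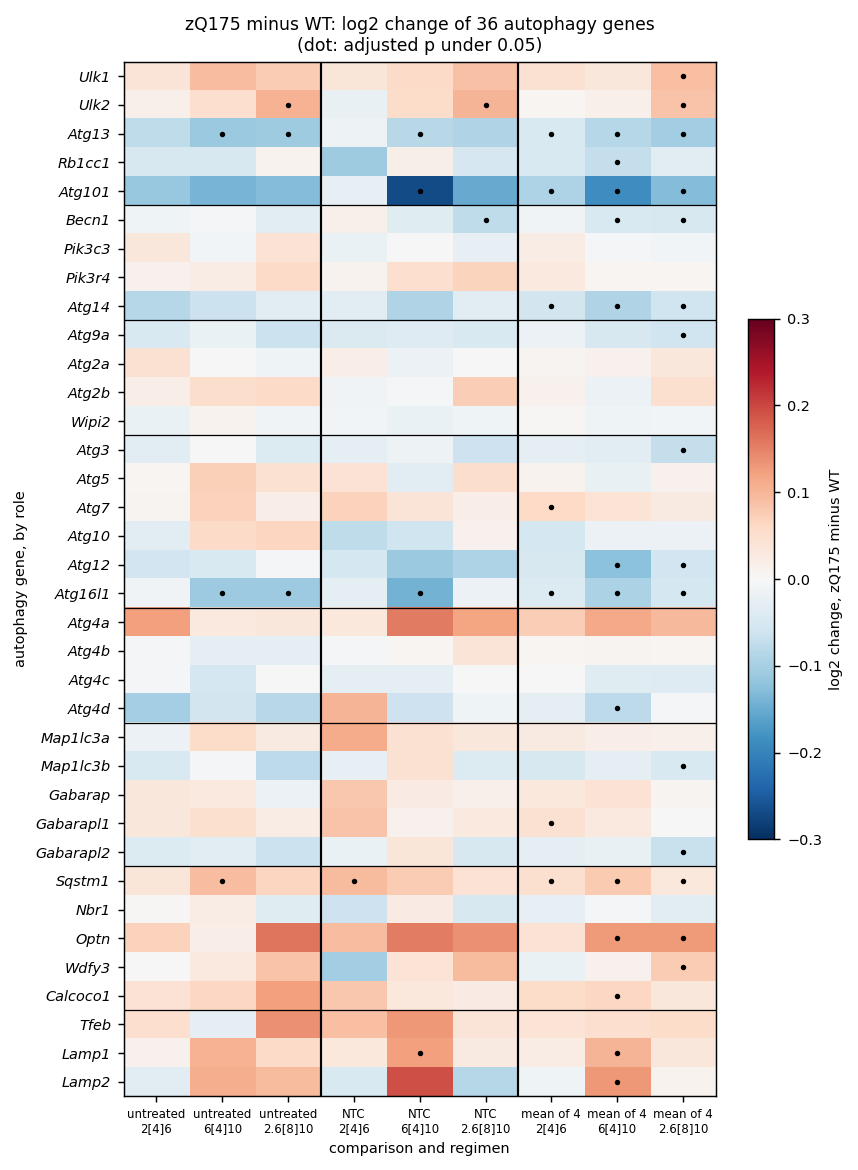
Log2 change of the 36 members, zQ175 minus WT, in untreated mice, NTC mice and the mean of the 4 treatments, for each regimen, with a dot where the adjusted p was under 0.05. In the mean of the 4 treatments Atg13, Atg101, Atg14 and Atg16l1 are blue and Sqstm1 is red with a dot in all 3 regimens, and the largest change is -0.19.

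Markers of several cell types differed between the genotypes as well. Their counts are to be read against the 10.6, 21.5 and 15.2 percent of all genes raised and the 10.9, 19.8 and 16.9 percent lowered. The summed level of 8 hippocampal excitatory neuron markers was lower in zQ175, with medians of 5637 against 6483 CPM in 2[4]6 (zQ175 4960 to 7320, WT 5403 to 7507), 5243 against 6974 in 6[4]10 (3904 to 5910, WT 5467 to 7577) and 5437 against 6911 in 2.6[8]10 (4345 to 6910, WT 2440 to 7991). Of these 8 markers 3, 7 and 5 were lowered and 1, 0 and 0 raised. Of 6 interneuron markers 6, 4 and 6 were lowered. The 2.6[8]10 count includes the WT library with striatal markers, whose interneuron sum was 1691 CPM against 511 to 856 in the other 63. Of 7 astrocyte markers 4, 3 and 4 were lowered, with median sums of 3538, 3552 and 3446 CPM in zQ175 against 3928, 3969 and 4013 in WT. Of 6 oligodendrocyte markers 2, 2 and 3 were lowered and 0, 3 and 0 raised, with median sums of 6616, 7490.1 and 6732 CPM against 7682, 7814 and 7776. Of 6 endothelial markers 2 were lowered in each regimen. Of 7 microglia markers 6 were raised in 6[4]10 and 1 and 0 in the other regimens, with a median sum in 6[4]10 of 388 CPM in zQ175 (340.3 to 507) against 362 in WT (288 to 414). None of these markers was at 0 in any library. In bulk tissue fewer cells of a type and less RNA per cell cannot be told apart, and the part of these shifts in the members' differences was not tested.

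The ULK1 kinase complex moved in both directions. Its adaptor subunits Atg13 and Atg101, which link the kinase to its scaffold, were lowered in all 3 regimens, and the kinases Ulk1 and Ulk2 were raised in 2.6[8]10. Atg101 changed most. In 6[4]10 its level was 25.2, 28.7 and 36.9 CPM (lowest, median, highest) in 32 WT mice and 22.6, 24.97 and 29.6 CPM in 32 zQ175 mice, and 19 of the 32 zQ175 mice were below every WT mouse. The change was -0.19 ± 0.03 (log2 ± SE, adjusted p = 7.87e-08), or 12.2 percent lower. In 2[4]6 WT mice had 23.9, 26.3 and 30.8 CPM and zQ175 mice 18.2, 24.9 and 29.1, a change of -0.09 ± 0.03 (adjusted p = 0.00636). In 2.6[8]10 the values were 22.4, 27.6 and 35.8 CPM against 21.4, 25.2 and 29.7, a change of -0.13 ± 0.03 (adjusted p = 0.00051). The genotypes overlapped in every regimen, but the zQ175 mean was lower under each of the 4 treatments in all 3.

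Atg13 was lower by similar steps. Its levels in 2.6[8]10 were 79.7, 88.8 and 103 CPM in WT and 76.9, 83.1 and 90.2 in zQ175, where 30 of 32 zQ175 mice lay below the WT median. The highest WT mouse was the library with striatal markers. The log2 change was -0.11 ± 0.02 (adjusted p = 5.46e-07), and -0.09 ± 0.02 (adjusted p = 2.08e-06) without that library. Within regimen 6[4]10 WT mice had 80.5, 89.3 and 96.9 CPM and zQ175 mice 75.3, 84.3 and 89.9, with 31 of 32 zQ175 mice below the WT median and a change of -0.09 ± 0.01 (adjusted p = 2.45e-06). Within regimen 2[4]6 the levels were 83.2, 88.5 and 94.4 against 77.0, 85.3 and 95.4 CPM, a change of -0.05 ± 0.01 (adjusted p = 0.0124). That call was lost without the libraries over 500 CPM of choroid plexus markers (-0.04, adjusted p = 0.157), as was the one of Atg101 in the same regimen (-0.08, adjusted p = 0.0709).

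**Figure D3:**
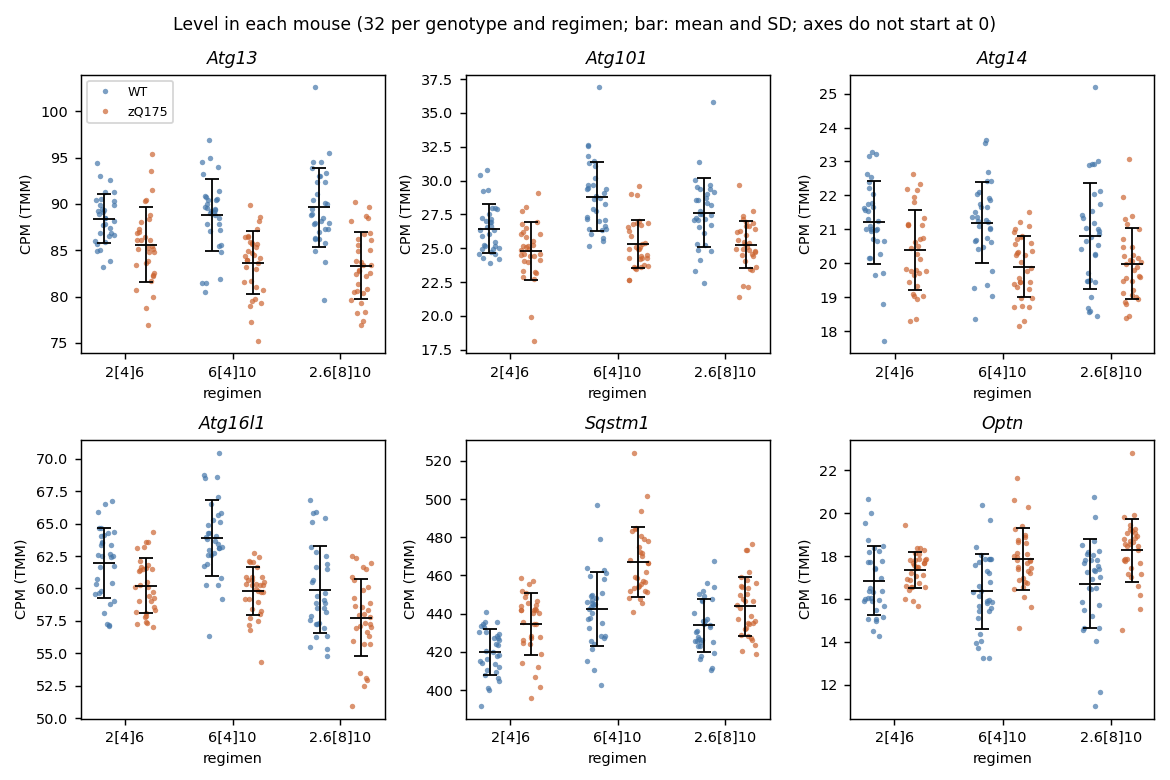
CPM of 6 members in each mouse by regimen and genotype (32 mice each), with mean and SD; the axes do not start at 0. The zQ175 mice lie lower for Atg13, Atg101, Atg14 and Atg16l1 and higher for Sqstm1 and Optn, with overlap of the genotypes in every panel.

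Ulk1 in 2.6[8]10 was 46.5, 73.7 and 79.7 CPM in WT and 70.2, 76.9 and 87.7 in zQ175, the lowest WT value again being the library with striatal markers. Its change of 0.09 ± 0.02 (adjusted p = 0.00166) was 0.08 ± 0.01 (adjusted p = 8.53e-06) without that library. In regimen 2[4]6 and 6[4]10 Ulk1 differed by 0.05 and 0.03 (adjusted p = 0.144 and 0.209), with WT medians of 75.4 and 78.6 CPM (range 66.2 to 84.4 and 70.6 to 92.0) and zQ175 medians of 78.2 and 79.6 (64.7 to 84.5 and 69.6 to 91.6). Ulk2 in 2.6[8]10 was 85.9, 98.3 and 110.5 CPM in WT and 89.3, 104.8 and 116 in zQ175, a change of 0.08 ± 0.02 (adjusted p = 6.59e-05), and it differed by 0.01 and 0.02 in 2[4]6 and 6[4]10 (adjusted p = 0.842 and 0.553). Rb1cc1, the scaffold FIP200, was lowered in 6[4]10 (-0.07, adjusted p = 0.00683).

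In the class III PI3 kinase complex the lipid kinase Pik3c3 and its regulatory subunit Pik3r4 were called in no regimen, with log2 changes between -0.01 and 0.03. Atg14, the subunit that directs the complex to autophagosome formation, was called as lowered in all 3 with all libraries, but held under every other setting tried only in 6[4]10. Among the mice of 6[4]10 it was 18.4, 21.3 and 23.6 CPM in WT and 18.1, 19.95 and 21.5 in zQ175, with 31 of 32 zQ175 mice below the WT median and a change of -0.09 ± 0.02 (adjusted p = 0.000125). In 2[4]6 the levels were 17.7, 21.2 and 23.3 against 18.3, 20.4 and 22.6 CPM (-0.06 ± 0.02, adjusted p = 0.0395), and in 2.6[8]10 18.5, 20.8 and 25.2 against 18.4, 19.9 and 23.1 CPM (-0.06 ± 0.02, adjusted p = 0.0468). The 2.6[8]10 call was found with the reported settings alone and in 0 of 12 alternatives, and the 2[4]6 call in 4 of 10. Without the library with striatal markers, which held the highest value, the 2.6[8]10 change was -0.04 (adjusted p = 0.147), and without the libraries over 500 CPM of choroid plexus markers the 2[4]6 change was -0.02 (adjusted p = 0.721). Becn1, the regulatory core subunit Beclin 1, was lowered in 6[4]10 (WT 104, 112 and 120.4 CPM, zQ175 103, 108 and 118, change -0.05 ± 0.01, adjusted p = 0.00179) and in 2.6[8]10 (WT 103, 112.7 and 120.8, zQ175 103, 110.0 and 117, change -0.05 ± 0.01, adjusted p = 0.00274). Within regimen 2[4]6 its levels of 104, 112.8 and 118 CPM in WT and 103, 111 and 126 in zQ175 differed by -0.01 (adjusted p = 0.592). Exons of Becn1 overlap those of Cntd1 on the other strand over 3104 bases, but Cntd1 had a mean of only 0.64 to 0.73 CPM.

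Of the 4 genes for membrane supply and PI3P effectors, Atg2a, Atg2b and Wipi2 were called in no regimen with all libraries. Without the library with striatal markers Atg2b was called as raised in 2.6[8]10 (0.05 ± 0.02, adjusted p = 0.0263). Atg9a, the lipid scramblase carried on vesicles, was lowered in 2.6[8]10 (-0.06, adjusted p = 0.0306), and the change without the library with striatal markers was -0.05 (adjusted p = 0.0869).

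Among the 6 conjugation genes Atg16l1 and Atg12 were lowered in more than 1 regimen. Atg16l1, which places the conjugation complex on the membrane, was 56.4, 63.7 and 70.5 CPM in WT and 54.3, 60.2 and 62.7 in zQ175 in 6[4]10, and all 32 zQ175 mice were below the WT median (-0.10 ± 0.01, adjusted p = 2.41e-07). In regimen 2[4]6 it was 57.1, 62.5 and 66.8 CPM against 57.1, 60.1 and 64.4 (-0.04 ± 0.01, adjusted p = 0.0167). Within regimen 2.6[8]10 the levels were 54.8, 58.98 and 66.8 CPM against 50.9, 57.9 and 62.5 (-0.05 ± 0.02, adjusted p = 0.0248). The 2.6[8]10 call was lost without the library with striatal markers (-0.04, adjusted p = 0.093), and the 2[4]6 call without the libraries over 500 CPM of choroid plexus markers (-0.04, adjusted p = 0.181). Atg12, the ubiquitin-like protein joined to ATG5, was lowered in 6[4]10, where WT mice had 48.9, 54.5 and 65.4 CPM and zQ175 mice 43.8, 51.2 and 58.4 (-0.12 ± 0.03, adjusted p = 0.000145). Among the mice of 2.6[8]10 it was 44.2, 49.1 and 55.5 CPM against 42.9, 47.5 and 54.999 (-0.06 ± 0.02, adjusted p = 0.0384), and this call was lost without the library with striatal markers (-0.04, adjusted p = 0.109). In 2[4]6 the levels were 49.7, 55.4 and 65.7 against 46.2, 53.7 and 59.7 CPM (-0.05, adjusted p = 0.0927). Atg3, the E2-like enzyme for ATG8 proteins, was lowered in 2.6[8]10 (-0.07, adjusted p = 0.00148). Atg7, the E1-like enzyme of both systems, was raised in 2[4]6 (0.06, adjusted p = 0.00531) and was the 1 member called there without the libraries over 500 CPM of choroid plexus markers. Atg5 and Atg10 were called in no regimen, nor were the proteases Atg4a, Atg4b and Atg4c. Atg4d was lowered in 6[4]10 (-0.08, adjusted p = 0.00236), and its exons overlap those of Kri1 on the other strand over 1405 bases.

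Of the 5 ATG8 genes, 1 was called in 2[4]6, 0 in 6[4]10 and 2 in 2.6[8]10, beside 21.5, 41.3 and 32.1 percent of all genes, and 0, 0 and 1 without the libraries over 500 CPM of choroid plexus markers. Map1lc3b was lowered in 2.6[8]10, where WT mice had 155.9, 172 and 185.8 CPM and zQ175 mice 153.7, 166 and 180.5 (-0.05 ± 0.02, adjusted p = 0.0146). It held in 6 of 12 alternatives, and the change was -0.04 (adjusted p = 0.0615) without the libraries over 500 CPM of choroid plexus markers. Within regimen 2[4]6 its values were 153.8, 170.1 and 207 CPM against 149.8, 167 and 183 (-0.05, adjusted p = 0.0534), and in 6[4]10 149.7, 167 and 185.98 against 138, 163 and 179.9 (-0.03, adjusted p = 0.231). Gabarapl1 was raised in 2[4]6, with 507, 537 and 581 CPM in WT and 507, 553 and 597 in zQ175 (0.04 ± 0.01, adjusted p = 0.0234). This call was lost without the libraries over 500 CPM of choroid plexus markers (0.04, adjusted p = 0.119), in which Gabarapl1 had a median of 524 CPM in 2[4]6 against 549.6 in the others. In 6[4]10 its medians were 548 and 554 CPM (WT 499 to 602, zQ175 519 to 592, change 0.03, adjusted p = 0.107) and in 2.6[8]10 both were 565 CPM (WT 519 to 678, zQ175 519.9 to 605, change 0.00, adjusted p = 0.983). Gabarapl2 was lowered in 2.6[8]10 (-0.07, adjusted p = 0.000875), and Map1lc3a and Gabarap were called in no regimen.

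Of the 5 cargo receptors and adaptors 1, 3 and 3 were called in the 3 regimens, all as raised. Among all genes 10.6, 21.5 and 15.2 percent were raised. Sqstm1, which encodes p62, was raised in all 3 regimens. In regimen 2[4]6 it was 392, 420.4 and 440.6 CPM in WT and 396, 440.3 and 459 in zQ175, where 15 of 32 zQ175 mice were above every WT mouse (0.05 ± 0.01, adjusted p = 0.00345). Within regimen 6[4]10 it was 403, 444 and 497 CPM in WT and 440.6, 464 and 524 in zQ175, with 31 of 32 zQ175 mice above the WT median (0.08 ± 0.02, adjusted p = 6.43e-05). In 2.6[8]10 the levels were 410.3, 432 and 468 against 419, 443.6 and 477 CPM (0.03 ± 0.01, adjusted p = 0.0285). Without the libraries over 500 CPM of choroid plexus markers the adjusted p was 0.0672 in 2[4]6 and 0.0579 in 2.6[8]10. Exons of Sqstm1 overlap those of Mrnip on the other strand over 580 bases. Mrnip, at a mean of 5.62 to 5.89 CPM, was itself raised by 0.14 in 2[4]6 and in 6[4]10, and reads from the overlap cannot be told apart without a stated strand setting.

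Optineurin (Optn) was raised in the 10-month regimens. Among the mice of 6[4]10 it was 13.3, 16.2 and 20.4 CPM in WT and 14.6, 17.8 and 21.6 in zQ175 (0.13 ± 0.03, adjusted p = 0.00118), and in 2.6[8]10 it was 11.0, 17.3 and 20.8 CPM against 14.6, 18.5 and 22.8 (0.13 ± 0.04, adjusted p = 0.00944). The lowest WT value in 2.6[8]10 was the library with striatal markers, and the change was 0.12 ± 0.04 without it (adjusted p = 0.00565). In 2[4]6 the levels were 14.3, 16.4 and 20.6 against 15.7, 17.5 and 19.5 CPM (0.04, adjusted p = 0.305). Calcoco1 was raised in 6[4]10 (0.06, adjusted p = 0.00478). Within regimen 2.6[8]10 it differed by 0.03 (adjusted p = 0.427) with all libraries and by 0.07 ± 0.01 (adjusted p = 9.81e-05) without the library with striatal markers. Wdfy3, the large adaptor ALFY that has been linked to clearance of aggregated protein, was raised in 2.6[8]10 (0.08 ± 0.03, adjusted p = 0.044), with WT levels of 161.3, 222 and 252 CPM and zQ175 levels of 186.1, 229 and 271. That call was lost without the libraries over 500 CPM of choroid plexus markers (0.08, adjusted p = 0.0651). Within regimen 2[4]6 and 6[4]10 Wdfy3 differed by -0.02 and 0.01 (adjusted p = 0.682 and 0.795). Nbr1 was called in no regimen.

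On the lysosome side, Lamp1 and Lamp2, both major lysosomal membrane proteins, were raised in 6[4]10. Lamp1 was 229, 270.3 and 304 CPM in WT and 272, 285 and 332 in zQ175 there, and all 32 zQ175 mice were above the WT median (0.10 ± 0.02, adjusted p = 1.5e-05). In regimen 2[4]6 its medians were 279 and 279 CPM (WT 257 to 297, zQ175 248.97 to 323, change 0.02, adjusted p = 0.394) and in 2.6[8]10 269 and 279 (WT 248 to 302, zQ175 251 to 308, change 0.03, adjusted p = 0.188). Tfeb was not called in any regimen. It was 8.56, 10.1 and 11.8 CPM in WT and 7.93, 10.2 and 12.6 in zQ175 in 2[4]6, 7.88, 11.1 and 15.4 against 9.63, 11.2 and 13.5 in 6[4]10, and 7.65, 10.496 and 12.6 against 8.99, 10.7 and 13.9 in 2.6[8]10 (changes of 0.04, 0.05 and 0.06, adjusted p = 0.484, 0.337 and 0.312). Without the libraries over 500 CPM of choroid plexus markers Tfeb was raised in 2.6[8]10 (0.12 ± 0.04, adjusted p = 0.0223).

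Lamp2 was higher in the libraries with more choroid plexus RNA. Among the mice of 2.6[8]10 it was 92.3, 117 and 150.8 CPM (lowest, median, highest) in the 14 libraries over 500 CPM of choroid plexus markers and 62.5, 76.8 and 92.2 in the other 50, so the ranges did not overlap, though they nearly met. In 6[4]10 it was 77.6, 99.3 and 119 CPM in 12 such libraries and 56.2, 77.0 and 89.4 in the other 52, and in 2[4]6 79.4, 96.7 and 126 in 22 and 68.8, 79.3 and 98.2 in 42. The highest Lamp2 value belonged to the 2.6[8]10 WT NTC library female 3, which also held the highest choroid plexus sum, 11860 CPM. None of the 8 choroid plexus markers, Ttr and Kl among them, was at 0 in any library or was called between genotypes in the averaged comparison. Their spread was wide, and their median log2 change was 0.21, 0.96 and -0.43 in 2[4]6, 6[4]10 and 2.6[8]10. In 6[4]10 their sum was 807 ± 1468 CPM (mean ± SD) in zQ175 and 411 ± 975 in WT. The Lamp2 change in 6[4]10, where zQ175 held 7 and WT 5 such libraries, was 0.13 ± 0.05 (adjusted p = 0.0166) with them and 0.08 ± 0.03 (adjusted p = 0.0376) without them.

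**Figure D4:**
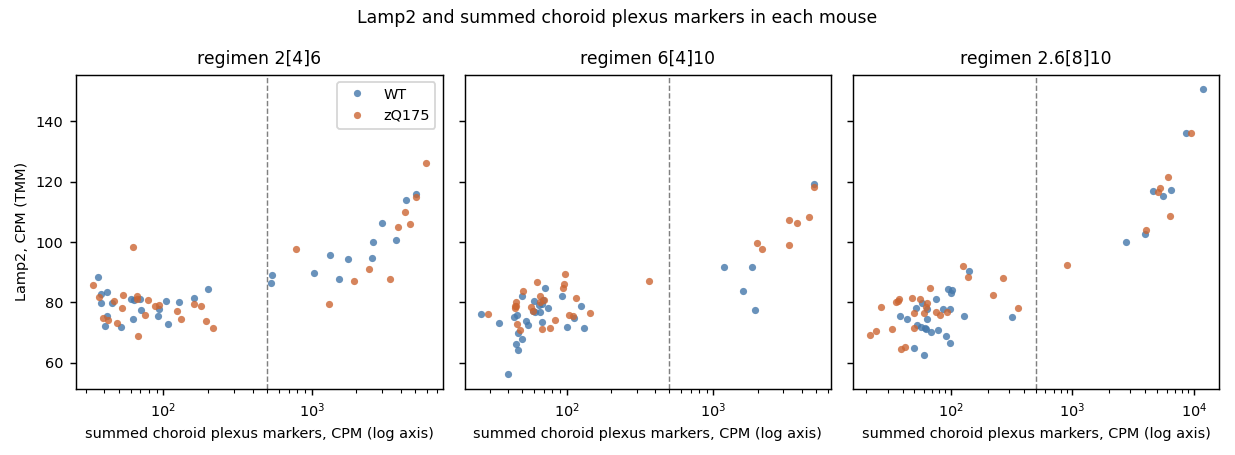
Lamp2 level (CPM) against the summed level of 8 choroid plexus markers (CPM, log axis) in each mouse of the 3 regimens, with a dashed line at 500 CPM. Libraries to the right of the line hold the highest Lamp2 values, up to 150.8 CPM, in both genotypes.

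TFEB and related factors bind the letters CACGTG, and the longer form TCACGTGA is typical of lysosomal genes. Both read the same on either strand, and the longer form contains the shorter. In the 250 bases upstream of the RefSeq start (GRCm38.p6), the shorter form was present in 4 of the 29 members with an entry (13.8 percent), beside 6.86 percent of 27025 genes, and the longer form in 1 of 29 (3.4 percent), beside 0.907 percent. The sequences below are shown as examples of windows that hold these letters (Lamp1, Atg3) and windows that do not (Sqstm1, Atg101). Capitals mark CACGTG and TCACGTGA, each sequence is given 5′ to 3′ on the gene's own strand, and a match is only a description of the letters.
Lamp1, chr8:13158911-13159160, plus strand: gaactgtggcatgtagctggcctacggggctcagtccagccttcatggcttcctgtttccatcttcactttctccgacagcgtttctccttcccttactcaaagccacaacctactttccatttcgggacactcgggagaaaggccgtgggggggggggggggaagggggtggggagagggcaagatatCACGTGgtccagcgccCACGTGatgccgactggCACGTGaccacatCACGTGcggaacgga
Atg3, chr16:45158579-45158828, plus strand: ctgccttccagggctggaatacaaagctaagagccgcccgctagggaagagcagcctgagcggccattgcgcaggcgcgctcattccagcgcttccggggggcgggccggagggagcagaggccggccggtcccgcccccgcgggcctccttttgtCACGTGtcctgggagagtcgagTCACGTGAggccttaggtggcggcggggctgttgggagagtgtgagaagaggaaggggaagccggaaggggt
Sqstm1, chr11:50210821-50211070, minus strand: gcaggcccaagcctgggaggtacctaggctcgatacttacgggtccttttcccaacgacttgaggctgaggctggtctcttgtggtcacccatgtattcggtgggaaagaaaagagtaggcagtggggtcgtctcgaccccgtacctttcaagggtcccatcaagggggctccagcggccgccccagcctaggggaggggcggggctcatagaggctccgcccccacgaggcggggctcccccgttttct
Atg101, chr15:101284051-101284300, plus strand: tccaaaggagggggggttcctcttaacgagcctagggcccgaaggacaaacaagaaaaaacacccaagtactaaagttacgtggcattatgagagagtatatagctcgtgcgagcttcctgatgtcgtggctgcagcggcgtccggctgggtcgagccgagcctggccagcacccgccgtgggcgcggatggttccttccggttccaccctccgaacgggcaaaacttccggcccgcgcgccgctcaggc
Lamp1 held 4 copies of the shorter form, and Atg3 held 2 copies, 1 of them within the longer form. Atg5 and Atg7 held 1 copy each. The Atg7 window, chr6:114670846-114671095, lies inside the GENCODE gene, which starts at 114643097 on the plus strand. It is therefore not upstream of that first start. The same holds for the windows of Wipi2, Atg4b and Atg14 and for some windows of Tfeb, which also lie inside their GENCODE genes. The shares above are thus for windows upstream of RefSeq starts, which are not always the first GENCODE start.

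Other genes of the pathway were counted from 3 lists, to be read against the 10.6, 21.5 and 15.2 percent of all genes raised and the 10.9, 19.8 and 16.9 percent lowered. Of 38 further autophagy genes, 6, 8 and 7 were raised and 4, 6 and 8 lowered in the 3 regimens. Wdr45b, a PI3P-binding WIPI family member, was raised in each (0.08, 0.08 and 0.10, adjusted p = 0.0012, 8.88e-05 and 3.8e-05), and Plekhm1, an adaptor for fusion with the lysosome, was lowered in 6[4]10 (-0.13 ± 0.03, adjusted p = 0.000103) and in 2.6[8]10 (-0.09 ± 0.03, adjusted p = 0.0207). Of 36 genes for mTORC1 and AMPK control, 1, 5 and 3 were raised and 5, 10 and 8 lowered. Among them Prkag2, an AMPK subunit, was lowered in each regimen (-0.12, -0.16 and -0.12, adjusted p = 1.63e-05, 1.22e-05 and 0.0012), and Sesn1, a sestrin upstream of mTORC1, in 6[4]10 and 2.6[8]10 (-0.16 and -0.11, adjusted p = 3.45e-07 and 0.00023). Of 38 lysosome genes, 4, 12 and 6 were raised and 1, 5 and 7 lowered. Progranulin (Grn) was raised in each regimen (0.11, 0.20 and 0.14, adjusted p = 0.000179, 3.99e-09 and 0.000436), as was the proton pump accessory subunit Atp6ap1 (0.05, 0.12 and 0.08, adjusted p = 0.000256, 2.59e-10 and 2.45e-05). Cathepsin L (Ctsl) was raised in 6[4]10 (0.28 ± 0.04, adjusted p = 3.12e-09), the regimen in which 6 of 7 microglia markers rose. The part of microglia in the lysosome genes was not tested. Median changes of the lists lay between -0.01 and 0.04.

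The second question was what the treatments did. NTC against untreated called 0 members in every regimen and genotype, where 0.0302, 0 and 1.02 percent of all genes were called in zQ175 and 0, 0 and 0.694 percent in WT. At an unadjusted p under 0.05 there were 10, 0 and 2 members in zQ175 and 2, 2 and 5 in WT, and DESeq2 and limma-voom called 0 as well. HTT-634.486 against NTC also called 0 members in all 6 comparisons, beside 0.0302, 0.959 and 2.04 percent of all genes in zQ175 and 0.0121, 0.0244 and 0.751 percent in WT. At an unadjusted p under 0.05 there were 3, 6 and 4 members in zQ175 and 2, 1 and 3 in WT. DESeq2 called 1 of these, Rb1cc1 in 6[4]10 zQ175 (-0.15 ± 0.05, adjusted p = 0.0429). Whole-gene Htt in zQ175 mice was 144.87 ± 17.85, 135.39 ± 8.79 and 139.97 ± 9.37 CPM (mean ± SD) with HTT-634.486. With NTC it was 146.22 ± 18.52, 141.6 ± 14.59 and 142.02 ± 12.96 CPM. The gene counts do not separate HTT1a, so whether the pair lowered it was not tested.

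HTT-10150 against NTC called 2, 0 and 1 members in zQ175, beside 3.57, 0.0672 and 0.871 percent of all genes, and 0, 0 and 1 in WT, beside 0.0664, 0.0183 and 3.41 percent. In the comparisons with 0 calls, 3 members (6[4]10 zQ175), 1 (2[4]6 WT) and 3 (6[4]10 WT) had an unadjusted p under 0.05, and DESeq2 and limma-voom called 0. The comparisons of both siRNA treatments share the NTC mice, and those of NTC share them too.

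In 2.6[8]10, the regimen with 2 treatments, Ulk2 was lower with HTT-10150 than with NTC. In zQ175 mice it was 105, 109 and 116 CPM (lowest, median, highest of 8) with NTC and 89.3, 100.1 and 108 with HTT-10150. Untreated zQ175 mice had 103, 105 and 111 CPM and HTT-634.486 mice 95.6, 102.2 and 109. The change against NTC was -0.14 ± 0.03 (adjusted p = 0.0185). In WT mice Ulk2 was 93.8, 101 and 110.5 CPM with NTC and 85.9, 93.9 and 95.2 with HTT-10150, beside 95.1, 98.8 and 103 untreated and 94.9, 99.2 and 109 with HTT-634.486, and the change was -0.14 ± 0.03 (adjusted p = 0.0109). The lowest WT value, 85.9 CPM, was the library with striatal markers, and without it the change was -0.12 ± 0.04 (adjusted p = 0.0553), no longer called. The zQ175 change was lost without the libraries over 500 CPM of choroid plexus markers (-0.13 ± 0.04, adjusted p = 0.0998). In both genotypes the HTT-10150 and NTC groups overlapped, and the interaction with genotype was not called (-0.00 ± 0.05, 95 percent interval -0.10 to 0.09, adjusted p = 1). Ulk2 changed with HTT-10150 by -0.08 and -0.03 in 6[4]10 (zQ175 and WT, adjusted p = 0.702 and 0.952) and by 0.05 and -0.06 in 2[4]6 (adjusted p = 0.471 and 0.887).

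In 2[4]6 zQ175 mice Wdfy3 and Atg2b were higher with HTT-10150 than with NTC. Wdfy3 was 188, 212 and 240.6 CPM with NTC and 214, 246 and 265 with HTT-10150 (0.21 ± 0.06, adjusted p = 0.0276). Untreated mice, at 211, 239.8 and 282 CPM, lay close to the HTT-10150 group, and HTT-634.486 mice, at 150.3, 203 and 232, close to the NTC group. Atg2b, a lipid transfer protein, was 58.9, 62.3 and 68.3 CPM with NTC and 65.6, 68.1 and 74.3 with HTT-10150 (0.13 ± 0.04, adjusted p = 0.036), beside 61.5, 66.2 and 72.0 untreated and 54.6, 61.0 and 67.3 with HTT-634.486. NTC against untreated gave -0.18 ± 0.06 for Wdfy3 (adjusted p = 0.124) and -0.09 ± 0.04 for Atg2b (adjusted p = 0.247). In WT mice of the same regimen HTT-10150 against NTC gave -0.04 ± 0.06 for Wdfy3 and -0.00 ± 0.04 for Atg2b. The difference between genotypes was not called by edgeR for either (adjusted p = 0.171 and 0.262), and DESeq2 called it for Wdfy3 (0.25 ± 0.08, adjusted p = 0.0447). Without the libraries over 500 CPM of choroid plexus markers Wdfy3 changed by 0.22 ± 0.05 (adjusted p = 0.0274) and Atg2b by 0.13 ± 0.04 (adjusted p = 0.0567), and Becn1 was called as lowered (-0.10 ± 0.03, adjusted p = 0.0359). DESeq2 on all libraries also called Becn1 (-0.08, adjusted p = 0.0287), Atg4d (-0.17, adjusted p = 0.0421) and Gabarap (-0.12, adjusted p = 0.0497) as lowered in this comparison.

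**Figure D5:**
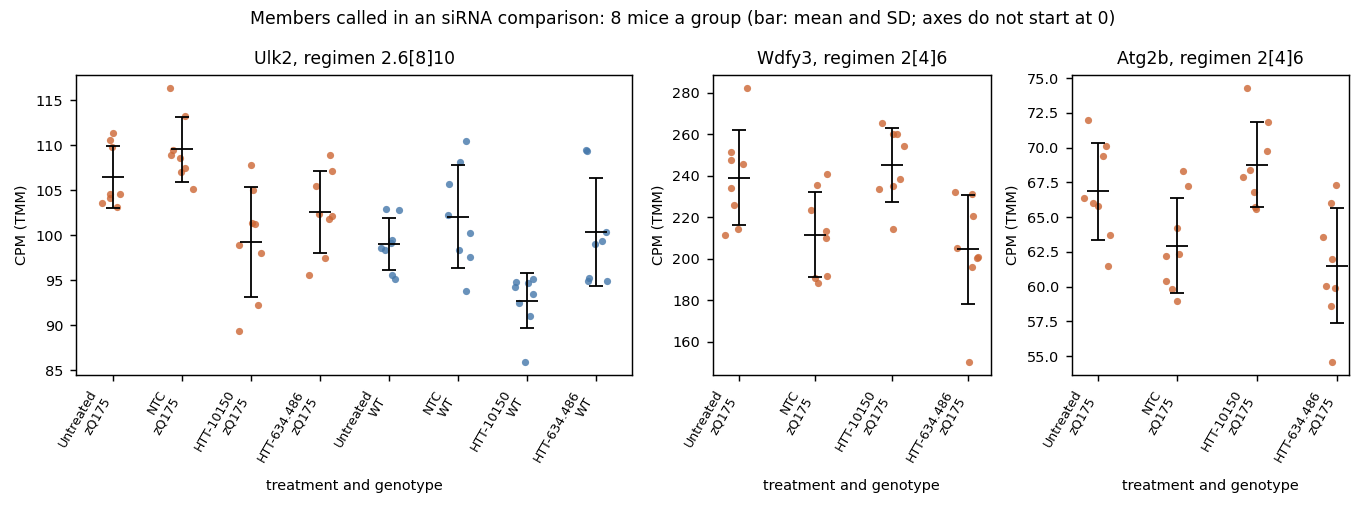
CPM in each mouse (8 a group, mean and SD; the axes do not start at 0) of Ulk2 in 2.6[8]10 and of Wdfy3 and Atg2b in 2[4]6 zQ175 mice. Ulk2 is lowest with HTT-10150 in both genotypes, and the Wdfy3 and Atg2b values of untreated mice lie beside those of HTT-10150 mice, with NTC and HTT-634.486 mice lower.

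The interaction of treatment with genotype called 0 members for HTT-10150 (0, 0 and 0.0126 percent of all genes called) and 0 for HTT-634.486 (0, 0 and 0.00631 percent). At an unadjusted p under 0.05 there were 9, 2 and 0 members for HTT-10150 and 0, 3 and 1 for HTT-634.486, and apart from Wdfy3 above DESeq2 called 0. Between sexes 1, 0 and 0 members were called, beside 6.71, 1.15 and 1.68 percent of all genes, with 8, 1 and 4 members at an unadjusted p under 0.05. The 1 call was Atg16l1, lower in females in 2[4]6 (-0.05 ± 0.01, adjusted p = 0.0121), and it was lost without the libraries over 500 CPM of choroid plexus markers (-0.05 ± 0.02, adjusted p = 0.189). The X-linked members Atg4a and Lamp2 were not called.

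Between regimens the genotype difference itself was called by edgeR for 0 members, beside 7.27 percent of all genes for 6[4]10 minus 2[4]6, 1.29 percent for 2.6[8]10 minus 2[4]6 and 0.385 percent for 2.6[8]10 minus 6[4]10. At an unadjusted p under 0.05 there were 6, 5 and 7 members. A member called in 1 regimen and not in another was therefore not shown to differ between them. The nearest was Lamp1, whose genotype difference was larger in 6[4]10 than in 2[4]6 by 0.08 ± 0.03 (adjusted p = 0.0529), and by 0.08 ± 0.03 (adjusted p = 0.0434) when the library with striatal markers was left out of the model of 192 libraries.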

How the data were processed

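Hippocampal libraries of 192 mice were prepared with polyA selection after extraction with a Qiagen RNeasy kit, per the labels' protocols. The authors deposited expected counts (RSEM's estimate of reads for each gene). RSEM and the build GRCm38 are named in the submitters' processing notes; for the RSEM version, aligner, annotation release and strand setting, nothing is given in the sources used here. All deposited values were whole numbers (100 percent) with no normalization, and every column was matched to 1 sample by its library name (0 unmapped). Gene names were taken from GENCODE vM21, which named 40254 of 41128 Ensembl identifiers (874 were not named). The other 7 features, which carry no plain Ensembl number and hold 6.85e-06 percent of counts, were left out.

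Each regimen was fitted on its own (64 libraries, 8 groups, sex as covariate) in edgeR 4.0.16 (quasi-likelihood F test; R 4.3.3) after filterByExpr by group and TMM scaling. Between regimens, 1 model of 192 libraries and 24 groups was used. Benjamini-Hochberg adjustment ran over all genes tested, and a gene is called at an adjusted p under 0.05; where no tool is named, the value is edgeR's. All 36 members passed the filter in every fit. Levels are CPM with TMM factors; Htt was compared as log2 CPM with a prior count of 2. Lengths are unions of GENCODE exons. DESeq2 1.42.0 and limma 3.58.1 (voom with the number in the library name as a random block) served as alternatives. The fitting scripts were tested on simulated data.

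Members with full values were those called with the same sign in at least 2 regimens in the averaged genotype comparison (up to 10), up to 3 called members of each other comparison, and Ulk1, Becn1, Map1lc3b, Gabarapl1, Sqstm1, Tfeb and Lamp1; other list genes, up to 4 per list and regimen by adjusted p. Lamp2 and Calcoco1 were added after their values were seen. Members and lists were chosen with earlier results of these data known. Leaving out the library with striatal markers, and the 48 libraries over 500 CPM of choroid plexus markers, were alternatives chosen after seeing the data. The labels call each library a separate mouse of its group, so p-values measure the spread between mice. What the number in the library name stands for is not stated. In the names checked, libraries that share a number also share their genotype. Mice with a shared number may therefore not be independent in zQ175 against WT, and the edgeR p-values take no account of this. The limma-voom fit put the correlation within a number at 0.051, 0.103 and 0.134 in 2[4]6, 6[4]10 and 2.6[8]10. Of the 36 members, 29 had a RefSeq promoter entry; no protein table was used. The precision of a level is set by library totals of 8441632 to 65748960 counts.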

Additional observations from a re-analysis of the deposited data

Results flagged for a closer look

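Among the 28 groups of 8 mice tested for a mouse far from the others (the groups of Ulk2, Wdfy3, Atg2b and Htt described above), 2 held one, where chance gives about 1 in 20. Ulk2 in the 2.6[8]10 WT HTT-10150 mouse female 1 was 85.94 CPM, with the nearest other mouse at 90.97; this is the library with striatal markers. Wdfy3 in the 2[4]6 zQ175 HTT-634.486 mouse male 3 was 150.28 CPM, with the nearest other at 195.7 CPM.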

How the results depend on the processing

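Counts of called members in the other comparisons and settings stayed within 1.5 times the value reported; size factors of DESeq2 in edgeR moved none. The exceptions follow, the cause of which was not tested. Where the share of all genes called in a setting is not given, a count is not read as a result about the members. Without a filter on low counts, 4 members were called for the averaged genotype comparison in 2[4]6 and 1 for HTT-10150 in zQ175 of 2[4]6, and in 2.6[8]10 1 for untreated genotype, 0 for NTC genotype and 0 for HTT-10150 in zQ175. DESeq2 called 2 for NTC genotype, 5 for HTT-10150 in zQ175, 1 for its interaction with genotype and 2 for sex, all in 2[4]6, and 1 for HTT-634.486 in zQ175 of 6[4]10. With limma-voom and the library number as a random block, 2.6[8]10 gave 1 for NTC genotype and 8 for the averaged comparison. Without the 3 libraries whose sex genes stood apart, NTC genotype in 2.6[8]10 gave 0.

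Without the library with striatal markers (chosen after seeing the data), untreated genotype in 2.6[8]10 gave 6, HTT-10150 in WT of 2.6[8]10 gave 0 and the genotype difference of 6[4]10 minus 2[4]6 gave 1. Without libraries over 500 CPM of choroid plexus markers (also chosen after seeing the data), 2[4]6 gave 0 for NTC genotype, 1 for the averaged comparison and 0 for sex, and 2.6[8]10 gave 1 for untreated genotype, 0 for NTC genotype and 0 for HTT-10150 in zQ175. This setting holds fewer mice.

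Leaving out replicate 1, 2, 3 or 4 of each sex in turn left fewer mice and gave these ranges of called members. For 2[4]6 they were 0 to 1 for NTC genotype (reported 1), 3 to 6 for the averaged comparison (7), 0 to 1 for NTC against untreated in zQ175 (0), 0 to 5 for HTT-10150 in zQ175 (2) and 0 to 1 for sex (1). For 6[4]10 they were 1 to 2 for untreated (3) and 2 to 3 for NTC genotype (4). For 2.6[8]10 they were 0 to 3 for untreated (3), 0 to 1 for NTC genotype (2), 7 to 10 for the averaged comparison (15), 0 to 0 for HTT-10150 in zQ175 (1) and 0 to 1 in WT (1). The genotype difference of 6[4]10 minus 2[4]6 gave 0 to 1 (0). The Htt difference in 2[4]6 zQ175 ran from -0.651 to -0.359 on the log2 scale (reported -0.484), with an exact permutation p of 0.158 without replicate 3 and 0.0844 without replicate 4.

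Sign changes were limited to averaged genotype changes that were not called. Leaving out 1 replicate number at a time, the log2 change ran from -0.0206 to 0.0018 for Becn1 in 2[4]6, -0.0044 to 0.0156 for Gabarapl1 in 2.6[8]10 (-0.0029 without replicate 1), -0.0037 to 0.0274 and -0.0156 to 0.0319 for Ulk2 in 2[4]6 and 6[4]10, and -0.0469 to 0.0095 and -0.0159 to 0.0412 for Wdfy3 in 2[4]6 and 6[4]10. Without the choroid plexus libraries the change was -0.001 for Ulk2 in 6[4]10 and 0.014 for Wdfy3 in 2[4]6. Replicate numbers were not treated as pairs, since the mean correlation of same-numbered mice was 0.003, 0.029 and 0.032 in the 3 regimens. As a hint from the data, 18, 29 and 29 of 64 libraries correlated best with their own number among the 4 numbers of their sex, where 16 would do so if the number carried nothing. With the number as a replicate block, the genotype difference of 6[4]10 minus 2[4]6 gave 1 call in place of 0.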
